A study of Homo sapiens with 12 samples.

Results

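Proteases and protease inhibitors of the epithelial cell surface were followed across 12 RNA sequencing libraries of HMLE cells, an immortalised line of human mammary epithelial cells. The genes were chosen by name as 10 of the 26357 gene symbols shared by the deposited tables: the serine proteases ST14, PRSS8, KLK5, KLK7 and KLK10, the Kunitz inhibitors SPINT1 and SPINT2, the serpins SERPINB2 and SERPINB5, and the inhibitor SLPI. All 10 were among the 11688 genes that reached 1 FPKM (fragments per kilobase of transcript, scaled to depth) in at least 3 libraries and were tested. In HMLE-pBp they passed this filter in every library, whereas in HMLE-Twist SERPINB5 alone did so in every library, so for the other 9 passing the filter already meant a higher level in HMLE-pBp.

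HMLE-Twist, labelled with the phenotype EMT (epithelial to mesenchymal transition), expresses the transcription factor TWIST1, and HMLE-pBp, labelled nonEMT, is its control line. Each line received 0.2 uM salinomycin, a polyether potassium ionophore, or DMSO as the mock, for 24 hours, in medium that held serum, insulin and hydrocortisone. This gave 4 groups of 3 biological replicates: HMLE-Twist mock, HMLE-Twist salinomycin, HMLE-pBp mock and HMLE-pBp salinomycin. Each phenotype is represented by 1 line, so the effect of TWIST1 and other differences between the lines cannot be told apart, and the labels do not say whether the lines are clonal.

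Matriptase, the product of ST14, is a transmembrane serine protease of epithelial cells that acts with the membrane-anchored protease prostasin, the product of PRSS8. Both are held in check by the Kunitz-type inhibitors HAI-1 (SPINT1) and HAI-2 (SPINT2), and the balance of the axis is known for its part in epithelial barriers, ion channel processing and shedding of surface proteins. Kallikreins are secreted trypsin-like or chymotrypsin-like proteases that cut cell junction proteins in stratified epithelia, while clade B serpins are mostly intracellular inhibitors. Among them, SERPINB2 (PAI-2) inhibits urokinase, and SERPINB5 (maspin) is a non-inhibitory serpin known from mammary myoepithelial cells.

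The promoters of SPINT1 and KLK5, which were all but silent in HMLE-Twist, are shown with those of SERPINB5 and SERPINB2. SERPINB5 kept a high level in HMLE-Twist. SERPINB2 changed with salinomycin in HMLE-pBp and had the lowest level of the members in HMLE-Twist mock. TWIST1 is a basic helix-loop-helix factor of the class that binds E-boxes, so the letters CANNTG, which read alike on both strands, are in capitals. The sequences are the 250 bases before a RefSeq start site (GRCh38.p14), 5′ to 3′ on the strand of the gene. They lie at chr15:40843798-40844047 (+) for the first start site of SPINT1, chr19:50953039-50953288 (-) for KLK5, chr18:63476708-63476957 (+) for SERPINB5 and chr18:63887455-63887704 (+) for SERPINB2.
SPINT1: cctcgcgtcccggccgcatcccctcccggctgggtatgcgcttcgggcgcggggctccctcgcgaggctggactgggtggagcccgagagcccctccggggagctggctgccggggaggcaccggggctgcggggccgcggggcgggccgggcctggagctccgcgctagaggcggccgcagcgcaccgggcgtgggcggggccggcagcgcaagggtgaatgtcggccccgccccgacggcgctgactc
KLK5: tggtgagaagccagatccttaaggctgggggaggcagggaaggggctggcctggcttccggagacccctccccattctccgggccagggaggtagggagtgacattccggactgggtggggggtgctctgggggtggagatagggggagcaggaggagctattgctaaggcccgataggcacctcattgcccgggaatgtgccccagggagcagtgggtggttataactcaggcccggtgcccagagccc
SERPINB5: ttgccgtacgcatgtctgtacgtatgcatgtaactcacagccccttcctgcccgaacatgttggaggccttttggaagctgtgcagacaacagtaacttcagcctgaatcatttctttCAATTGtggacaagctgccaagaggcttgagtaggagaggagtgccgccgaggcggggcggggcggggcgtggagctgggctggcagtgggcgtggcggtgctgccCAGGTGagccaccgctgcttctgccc
SERPINB2: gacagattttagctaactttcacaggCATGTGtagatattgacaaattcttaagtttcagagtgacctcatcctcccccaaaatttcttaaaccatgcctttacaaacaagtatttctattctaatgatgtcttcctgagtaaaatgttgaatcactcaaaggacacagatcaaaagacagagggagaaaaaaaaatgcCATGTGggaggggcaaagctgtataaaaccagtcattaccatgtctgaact

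The window of KLK5 and the SPINT1 window shown held no CANNTG, and those of SERPINB5 and SERPINB2 held 2 each. One of the SERPINB5 matches, CAGGTG, is the E-box form that is also bound by SNAI and ZEB repressors. A window at the second SPINT1 start site (chr15:40844227-40844476), not shown, held 1 E-box, and this was of the same form as that of SERPINB5. CANNTG stood in 61.8% of the 35116 RefSeq windows of this length, and CAGGTG on either strand, which CANNTG includes, in 17.5%. The SPINT1 window held 35 CpG dinucleotides and the SERPINB2 window held 0, against a median of 11 over all windows, and the SERPINB2 window alone among the 4 held TATAAA, which 6.8% of windows hold. Windows were at hand for 6 of the members, with 10 start sites in all, of which 5 held CANNTG. Those of KLK7, which overlap and are not shown, held 2, 0 and 4, and both of KLK10 held 0. KLK7 and KLK10 were also nearly absent from HMLE-Twist. For ST14, PRSS8, SPINT2 and SLPI there was no window. These matches describe the letters only, and no binding was measured in this study.

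Depth lay between 17.9 and 26.7 recovered megareads per library, and the cells went with their labels. TWIST1 stood at 725 ± 343 FPKM (SD, n = 3) in HMLE-Twist mock and at 2.54 ± 0.04 FPKM in HMLE-pBp mock. The summed level of 6 epithelial markers was 3023 to 3512 FPKM in HMLE-pBp mock and 3.87 to 7.98 FPKM in HMLE-Twist mock, and that of 5 mesenchymal markers was 269 to 306 and 3115 to 4041 FPKM. With salinomycin the epithelial sum was 2652 to 2830 FPKM in HMLE-pBp and 2.09 to 3.85 FPKM in HMLE-Twist, each below its mock without overlap. The mesenchymal sum was 267 to 312 and 4176 to 4989 FPKM, the latter above the mock without overlap. The part of these marker shifts in the results below was not tested, and in bulk RNA fewer cells of a type and less RNA per cell cannot be told apart. The sum of 6 luminal markers was 472 to 580 FPKM in HMLE-pBp mock and 39.6 to 53.3 FPKM in HMLE-Twist mock. Among leukocyte genes PTPRC and CD3E were at or near 0 in every group. CD68, which is not restricted to leukocytes, stood at 23.7 ± 1.8 FPKM in HMLE-Twist mock, 38.0 ± 2.3 FPKM with salinomycin and 10.8 ± 0.7 FPKM in HMLE-pBp mock, and passed between the lines (1.07, limma, adjusted p = 1.54e-07) and with salinomycin in HMLE-Twist (0.66, limma, adjusted p = 0.000151). The sum of 4 endothelial genes was at most 1.26 FPKM. The library of HMLE-pBp salinomycin replicate 1 stood apart from its group on the second principal component, at -26.7 against -13.6 and -6.35, and values without it are given where they matter.

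**Figure D1:**
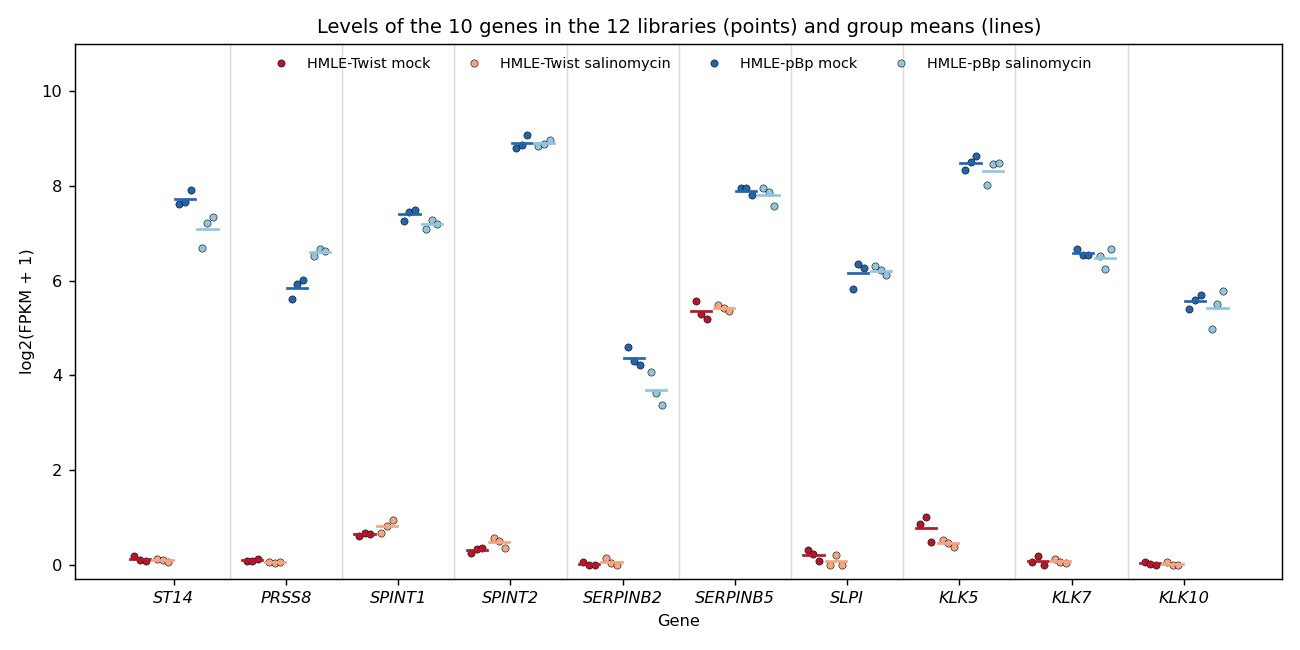
Level of each gene on the log2(FPKM + 1) scale (vertical axis) in the 12 libraries, coloured by group; points are libraries, left to right by replicate number, and lines are group means. All HMLE-pBp libraries lie above all HMLE-Twist libraries for each gene, and SERPINB5 is the gene with a high level in both lines.

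In the absence of salinomycin, all 10 genes were lower in HMLE-Twist than in HMLE-pBp, with no overlap between the 3 libraries of each line. This was the direction of 37.3% of all genes tested, 36.2% were higher in HMLE-Twist and 73.6% differed in either direction, so a call by itself was common. Groups that did not overlap were also common, at 74.0% of genes. The median over the 10 genes was -6.23 on the log2(FPKM + 1) scale, beside -0.0021 over all genes. By size of the difference in either direction, SPINT2 ranked 4 of 11688, KLK5 ranked 10 and ST14 ranked 12, and SERPINB5, the last of the members, ranked 583. Differences on this scale understate the fold of genes near 0, so folds below are given as ratios of recovered reads scaled for depth, with 95% exact counting intervals that cover counting error only.

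All 4 genes of the matriptase axis were nearly absent from HMLE-Twist mock. ST14 stood at 196, 201 and 239 FPKM in HMLE-pBp mock and at 0.142, 0.075 and 0.055 FPKM in HMLE-Twist mock, the latter on 10, 5 and 5 reads. Matriptase transcript was thus 2437-fold higher in HMLE-pBp (interval 1578 to 3990). PRSS8 stood at 48.1, 60.0 and 63.3 FPKM in HMLE-pBp mock and at 0.048, 0.051 and 0.093 FPKM in HMLE-Twist mock. Prostasin transcript was 853-fold higher in HMLE-pBp (449 to 1867), where its level was below that of its partner protease in every library.

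Both Kunitz inhibitors fell with their targets. SPINT2 had the highest level of the members in HMLE-pBp mock, at 446, 465 and 541 FPKM, and stood at 0.182, 0.248 and 0.280 FPKM in HMLE-Twist mock, a 2025-fold difference (1418 to 3002). SPINT1 stood at 153, 174 and 179 FPKM in HMLE-pBp mock and at 0.522, 0.591 and 0.558 FPKM in HMLE-Twist mock. At 303-fold (248 to 374), the difference of SPINT1 was the smallest of the axis by this ratio. On the log2(FPKM + 1) scale the differences were -8.61 ± 0.09 (SE) for SPINT2, -7.60 ± 0.14 for ST14, -6.76 ± 0.09 for SPINT1 and -5.76 ± 0.10 for PRSS8 (limma, Benjamini-Hochberg adjusted p at most 3.25e-13 for these 4).

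The 3 kallikreins showed the same split. KLK5, a trypsin-like kallikrein that can activate others of its family, stood at 320, 364 and 395 FPKM in HMLE-pBp mock and at 0.811, 1.02 and 0.392 FPKM in HMLE-Twist mock. This left 513-fold (410 to 652) between the lines, on 76 reads in HMLE-Twist. KLK7, a chymotrypsin-like kallikrein of the epidermis, stood at 101, 91.8 and 92.5 FPKM in HMLE-pBp mock and at 0.044, 0.140 and 0 FPKM in HMLE-Twist mock, a 1759-fold difference (892 to 4075). KLK10 stood at 41.3, 47.4 and 51.0 FPKM in HMLE-pBp mock. With 3, 1 and 0 reads in HMLE-Twist mock, KLK10 was 2654-fold lower there, within a wide interval of 1036 to 9742.

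The serpins differed from each other in how much remained. SERPINB5 stood at 247, 246 and 223 FPKM in HMLE-pBp mock and at 46.8, 38.0 and 35.3 FPKM in HMLE-Twist mock. Maspin transcript thus kept 16.8% of the control level, a 5.99-fold difference (5.84 to 6.15) with -2.55 ± 0.12 on the log2 scale (limma, adjusted p = 1.21e-09). The other 9 genes kept between 0.042% and 0.331%. SERPINB2, at 23.2, 18.6 and 17.7 FPKM in HMLE-pBp mock, had 2 reads in HMLE-Twist mock replicate 1 and 0 in replicates 2 and 3, for a ratio of 1483 with an interval of 410 to 12256. A count of 0 there allows up to 0.069 and 0.050 FPKM (3 reads). SLPI, a secreted inhibitor of neutrophil elastase, stood at 55.9, 81.2 and 76.6 FPKM in HMLE-pBp mock and at 0.236, 0.167 and 0.060 FPKM in HMLE-Twist mock, a 487-fold difference (223 to 1328).

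Within HMLE-pBp mock, levels per length ran from SPINT2 (484 ± 49.9 FPKM, SD, n = 3) through KLK5 (360 ± 37.3), SERPINB5 (239 ± 13.7), ST14 (212 ± 23.6), SPINT1 (169 ± 13.8), KLK7 (95.2 ± 5.37), SLPI (71.2 ± 13.5), PRSS8 (57.1 ± 8.02) and KLK10 (46.6 ± 4.87) to SERPINB2 (19.8 ± 2.95). The libraries of SERPINB5 and ST14 overlapped, as did those of SLPI with PRSS8 and of PRSS8 with KLK10, so these neighbours were not separated. In HMLE-Twist mock, SERPINB5 was followed by KLK5 at 0.740 ± 0.318 FPKM and SPINT1 at 0.557 ± 0.035 FPKM, whose libraries overlapped. From SPINT2 (0.237 ± 0.050 FPKM) downwards each gene overlapped the next.

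With salinomycin in both lines, all 10 genes were again lower in HMLE-Twist without overlap, a call shared in this direction by 32.1% of all genes and in either direction by 63.6%, and 70.0% of all genes did not overlap. The median was -6.40, beside 0.0098 over all genes. SERPINB5 kept 18.7% of the level of HMLE-pBp, with 43.5, 41.8 and 40.01 FPKM in HMLE-Twist and 249, 233 and 189 FPKM in HMLE-pBp. The other genes kept between 0.031% and 0.525%, and the highest of these was SPINT1. On the log2 scale the differences were -8.42 ± 0.09 for SPINT2, -7.88 ± 0.15 for KLK5, -6.99 ± 0.14 for ST14, -6.55 ± 0.10 for PRSS8, -6.41 ± 0.10 for KLK7, -6.38 ± 0.09 for SPINT1, -6.14 ± 0.13 for SLPI, -5.41 ± 0.16 for KLK10, -3.63 ± 0.15 for SERPINB2 and -2.38 ± 0.12 for SERPINB5 (limma, adjusted p at most 2.68e-09). The comparisons with and without salinomycin share no library.

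Salinomycin changed 3 of the 10 genes in HMLE-pBp, 1 upwards and 2 downwards. In this comparison 19.0% of all genes passed the test, 9.6% upwards and 9.4% downwards, and 41.5% had groups that did not overlap. A share of 3 in 10 stands near that background, and the members' median of -0.12 stood beside -0.012 over all genes. The 3 called genes were also the 3 whose groups did not overlap.

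PRSS8 rose. It stood at 90.2, 100.2 and 97.8 FPKM with salinomycin against 48.1, 60.0 and 63.3 FPKM in the mock, so every treated library lay above every mock library. The rise was 1.68-fold, or 0.75 ± 0.10 (SE) on the log2(FPKM + 1) scale (limma, adjusted p = 0.000443). In the order of levels PRSS8 stood at place 8 in the mock and at place 6 with salinomycin, where its libraries overlapped those of KLK7.

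ST14, its partner protease, fell. It stood at 102, 148 and 160 FPKM with salinomycin against 196, 201 and 239 FPKM in the mock, which left 64.6% of the mock level, a change of -0.65 ± 0.14 (limma, adjusted p = 0.00934). The lowest value was that of replicate 1, the library that stood apart, and without it the change was -0.45 (limma, adjusted p = 0.0152).

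SERPINB2 fell too, to 15.7, 11.4 and 9.38 FPKM from 23.2, 18.6 and 17.7 FPKM, or 61.3% of the mock level (-0.68 ± 0.15, limma, adjusted p = 0.00943). Here the replicate that stood apart had the highest treated value, and without it the change was -0.87 (limma, adjusted p = 0.00147). With a pseudocount of 0.1 in place of 1 the change was -0.72 and no longer passed (limma, adjusted p = 0.087).

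The inhibitors of the axis moved less. SPINT1 stood at 136, 155 and 146 FPKM with salinomycin and at 153, 174 and 179 FPKM in the mock. Its change of -0.21 ± 0.09 did not pass (limma, adjusted p = 0.126) but did with the replicate number as a block (limma, adjusted p = 0.0339). SPINT2, at 459, 470 and 500 FPKM against 446, 465 and 541 FPKM, gave -0.02 ± 0.09 (limma, adjusted p = 0.907), and 2 standard errors around it ran from -0.20 to 0.16.

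Ratios of protease to inhibitor were set up as a further measure, chosen after the values of the genes had been seen. The FPKM of ST14 over that of SPINT1 was 1.28, 1.15 and 1.34 in the mock and 0.750, 0.959 and 1.099 with salinomycin. ST14 over SPINT2 was 0.438, 0.432 and 0.442 in the mock and 0.222, 0.315 and 0.321 with salinomycin. PRSS8 over SPINT1 moved the other way, from 0.315, 0.344 and 0.355 to 0.663, 0.648 and 0.670. PRSS8 over ST14 was 0.246, 0.299 and 0.265 in the mock and 0.885, 0.676 and 0.610 with salinomycin. Mock and treated libraries did not overlap in any of these 4 ratios. For PRSS8 over ST14 this was fixed in advance, because PRSS8 rose and ST14 fell without overlap. The other ratios each hold 1 of these genes and largely restate its change. The share of such ratios over all genes is not given here. The exact two-sided permutation p was 0.1 for each and 0.1 after adjustment over the 4, which is the smallest that 3 against 3 libraries allow, so none could pass. Transcript ratios say nothing of protein amounts or of activity.

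**Figure D2:**
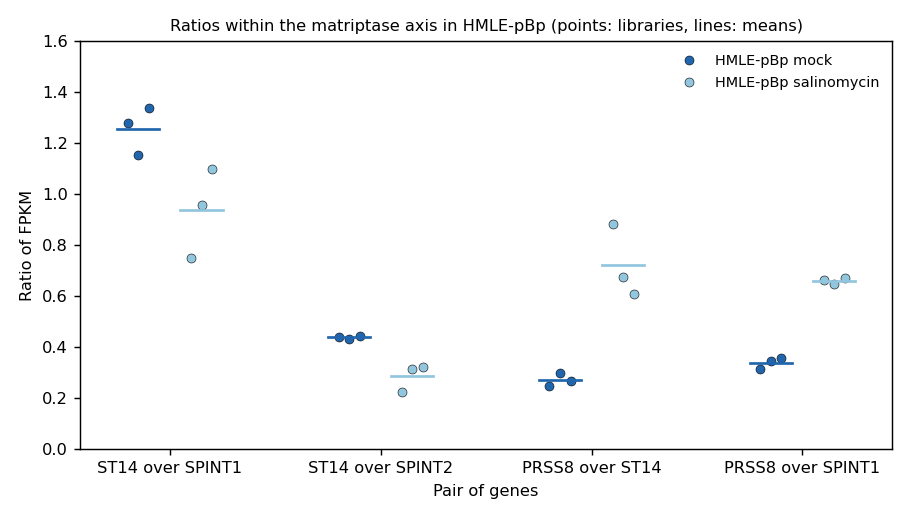
Ratio of FPKM values (vertical axis, linear) for 4 pairs of genes of the matriptase axis in HMLE-pBp; points are the 3 libraries of each group, left to right by replicate number, and lines are means. Ratios with ST14 on top lie lower and ratios with PRSS8 on top lie higher with salinomycin, with no overlap.

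The remaining members did not pass in HMLE-pBp. KLK5 stood at 261, 350 and 358 FPKM with salinomycin (-0.16 ± 0.15, limma, adjusted p = 0.466) and at -0.02 without replicate 1. KLK7 stood at 90.9, 75.3 and 101 FPKM (-0.11 ± 0.10), and KLK10 at 30.5, 44.6 and 54.3 FPKM (-0.14 ± 0.16), where leaving out replicate 1 turned the sign to 0.08. SERPINB5 stood at 249, 233 and 189 FPKM (-0.10 ± 0.12), and SLPI at 77.7, 73.6 and 68.5 FPKM (0.06 ± 0.13). Intervals of 2 standard errors around these 5 values reached down to -0.46 (KLK10) and up to 0.32 (SLPI), so smaller changes were not detectable with these libraries.

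In HMLE-Twist none of the 10 genes passed with salinomycin, while 26.7% of all genes did. KLK5 alone had an unadjusted limma p under 0.05, so 1 of the 10 passed before adjustment, and limma-voom called 0. The shares of all genes by these other measures are not given here, so these counts stand without a background. The groups of PRSS8, SPINT1 and SPINT2 did not overlap in FPKM, beside 40.2% of all genes. Before scaling for depth the reads of each of these genes did overlap. PRSS8 had 2, 2 and 5 reads in the mock and 2, 1 and 2 with salinomycin. The median over the members was -0.012, equal to that over all genes. All members but SERPINB5 were near 0 in HMLE-Twist, where this scale leaves little room to move. The median thus says little of their response. SERPINB5, the member with reads enough for a close comparison, stood at 43.5, 41.8 and 40.01 FPKM against 46.8, 38.0 and 35.3 FPKM in the mock (0.07 ± 0.12, limma, adjusted p = 0.722).

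The other members were counted on few reads. SPINT1 had 34, 41 and 59 reads with salinomycin and 28, 30 and 39 in the mock (0.600, 0.769 and 0.923 FPKM against 0.522, 0.591 and 0.558), and SPINT2 had 19, 16 and 13 reads against 7, 9 and 14. With a pseudocount of 0.1 both passed, at 0.38 for SPINT1 (limma, adjusted p = 0.0463) and 0.53 for SPINT2 (limma, adjusted p = 0.0209), and SPINT2 also passed on TPM (limma, adjusted p = 0.0385). KLK5 went the other way, with 15, 12 and 12 reads (0.426, 0.363 and 0.303 FPKM) against 27, 32 and 17 (0.811, 1.02 and 0.392 FPKM). Its change was -0.34 ± 0.15 (limma, adjusted p = 0.12), and -0.78 with the pseudocount of 0.1 (limma, adjusted p = 0.0355). Leaving out 1 library at a time moved it between -0.49, which passed without HMLE-Twist mock replicate 3 (limma, adjusted p = 0.0224), and -0.22. ST14, PRSS8, SERPINB2, SLPI, KLK7 and KLK10 had between 0 and 6 reads in each treated library, and no change of theirs was detectable at this depth.

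**Figure D3:**
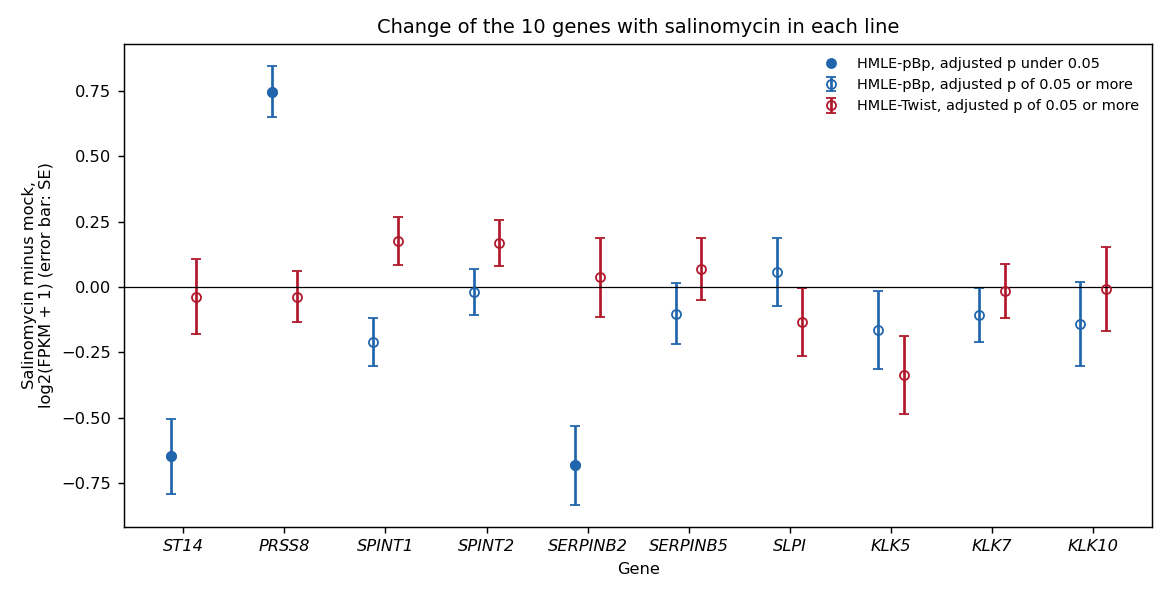
Change with salinomycin (vertical axis, salinomycin minus mock on the log2(FPKM + 1) scale) for each gene in HMLE-pBp (blue) and HMLE-Twist (red); error bars are standard errors of the limma fit and filled points have an adjusted p under 0.05. PRSS8 lies above 0, and ST14 and SERPINB2 below, in HMLE-pBp.

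The difference between the responses of the lines passed for 2 of the 10 genes, 1 upwards and 1 downwards, beside 13.6% of all genes, of which 6.99% were upwards and 6.66% downwards. PRSS8 differed by -0.78 ± 0.14 (HMLE-Twist minus HMLE-pBp, limma, adjusted p = 0.00476) and SERPINB2 by 0.72 ± 0.21 (limma, adjusted p = 0.0447). Because both genes were near 0 in HMLE-Twist, this scale left them little room to move there. On the ratio scale of limma-voom the difference of PRSS8 was -1.41 (limma, adjusted p = 0.207) and that of SERPINB2 was 1.62 (limma, adjusted p = 0.456), and neither passed. ST14 gave 0.61 ± 0.20 (limma, adjusted p = 0.0658) and SPINT1 0.39 ± 0.13 (limma, adjusted p = 0.0681), and with the replicate block both passed (limma, adjusted p = 0.0308 and 0.0134). The other 6 did not pass, at 0.19 ± 0.13 for SPINT2, 0.17 ± 0.17 for SERPINB5, 0.13 ± 0.23 for KLK10, 0.09 ± 0.15 for KLK7, -0.17 ± 0.21 for KLK5 and -0.19 ± 0.18 for SLPI (limma, adjusted p at least 0.326).

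Relatives of the members, from lists drawn up by gene family and role, were read in the same fits. Of 12 other kallikreins, 5 passed the filter, each through HMLE-pBp alone, with 0 to 5 reads in all of HMLE-Twist mock, so a lower level in HMLE-Twist was fixed by the filter. The differences were -4.93 ± 0.08 for KLK8, -3.24 ± 0.15 for KLK9, -3.21 ± 0.15 for KLK6, -2.90 ± 0.13 for KLK14 and -1.91 ± 0.08 for KLK11 (limma, adjusted p at most 1.39e-09). Their levels in HMLE-pBp mock were lower than those of KLK5, KLK7 and KLK10, the highest being KLK8 at 30.0 ± 0.87 FPKM (SD, n = 3).

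Salinomycin moved 2 of these 5 kallikreins in HMLE-pBp, in opposite directions, beside 9.6% of all genes upwards and 9.4% downwards. KLK11 rose from 2.75 ± 0.07 to 6.02 ± 0.61 FPKM (0.90 ± 0.08 SE, limma, adjusted p = 5.37e-05). KLK14 fell from 6.96 ± 0.41 to 3.41 ± 0.98 FPKM (-0.88 ± 0.13, limma, adjusted p = 0.00112). With 0 to 6 reads of each in a whole HMLE-Twist group, no change was detectable there.

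Of 11 other clade B serpins, 5 passed the filter. Beside 37.3% of all genes lower and 36.2% higher, SERPINB13 (-3.91 ± 0.12, through the filter by HMLE-pBp alone), SERPINB7 (-3.74 ± 0.16) and SERPINB1 (-1.33 ± 0.12) were lower in HMLE-Twist mock, and SERPINB6 was higher by 0.44 ± 0.09 (limma, adjusted p at most 0.000628). SERPINB8 did not pass, at 7.53 ± 1.80 FPKM in HMLE-Twist mock and 9.11 ± 0.11 FPKM in HMLE-pBp mock. With salinomycin 0 of the 5 passed in limma in either line, beside 26.7% of all genes in HMLE-Twist and 19.0% in HMLE-pBp. By limma-voom 0 passed as well. At an unadjusted limma p under 0.05 there was 1 in HMLE-Twist (SERPINB8) and 2 in HMLE-pBp (SERPINB6 and SERPINB13). The shares of all genes by limma-voom and by unadjusted p are not given here, so those counts stand without a background. SERPINB3 and SERPINB4, near-identical copies that share reads, were under the filter.

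Of 17 other epithelial serine proteases, 6 passed the filter, and 4 were lower in HMLE-Twist mock, beside 37.3% of all genes, of which the first 3 passed the filter through HMLE-pBp alone: PRSS22 by -2.55 ± 0.15, TMPRSS4 by -2.38 ± 0.14, TMPRSS11E by -2.30 ± 0.08 and HTRA1 by -1.66 ± 0.18 (limma, adjusted p at most 3.13e-06). PRSS23, a secreted trypsin-like protease, was higher in HMLE-Twist mock, at 22.1 ± 2.4 against 9.69 ± 0.58 FPKM (1.11 ± 0.11, limma, adjusted p = 2.33e-06). It was also the protease of this list that fell with salinomycin in both lines, by 0.74 on the log2 scale to 5.42 ± 0.69 FPKM in HMLE-pBp and by 0.42 to 16.2 ± 2.0 FPKM in HMLE-Twist (limma, adjusted p = 0.00119 and 0.0159). The HMLE-Twist call of PRSS23 was lost without HMLE-Twist salinomycin replicate 1 or 2 (limma, adjusted p = 0.068 and 0.064). TMPRSS11E fell by 0.29 in HMLE-pBp (limma, adjusted p = 0.0336), a call that ended when any of 6 single libraries was left out, with adjusted p up to 0.147 in limma.

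Of 11 other small inhibitors, 6 were tested and 6 were lower in HMLE-Twist mock, beside 37.3% of all genes. PI3, SPINK6, A2ML1 and WFDC2, with 0 to 2 reads in all of HMLE-Twist mock, passed the filter through HMLE-pBp alone, which fixed their direction. The differences were led by PI3 (elafin, -5.10 ± 0.09), SPINK6 (an inhibitor of kallikreins, -4.39 ± 0.10), A2ML1 (-3.25 ± 0.10) and CSTA (cystatin A, -3.20 ± 0.14), with limma adjusted p at most 8.3e-10. CST6 and CSTB were left out because their length could not be settled from the tables. With salinomycin in HMLE-pBp, SPINK6 fell from 19.98 ± 1.92 to 11.8 ± 1.5 FPKM (-0.71 ± 0.10, limma, adjusted p = 0.000557). WFDC2 fell by 0.49 (limma, adjusted p = 0.0245), a call lost without HMLE-pBp mock replicate 2 or 3 or salinomycin replicate 1 (adjusted p up to 0.0999).

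**Figure D4:**
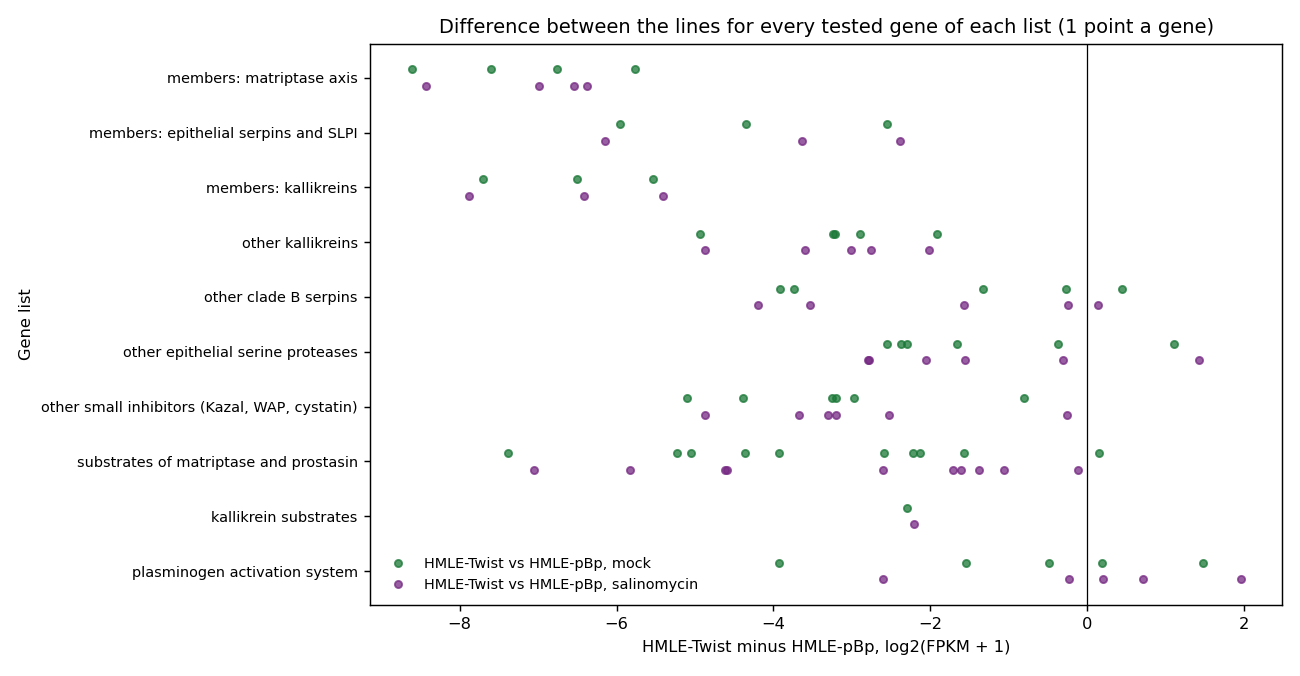
Difference between the lines (horizontal axis, HMLE-Twist minus HMLE-pBp on the log2(FPKM + 1) scale) for every tested gene of each list, with 1 point per gene, in the mock (green) and with salinomycin (purple). The 10 members lie between -8.61 and -2.38, and PRSS23, SERPINE2 and SERPINB6 are among the genes to the right of 0 in the mock.

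Of 11 genes on the list for substrates of matriptase and prostasin, 10 were tested and 9 were lower in HMLE-Twist mock, beside 37.3% of all genes. The list also held MET and MST1R, which are receptors of the substrates HGF and MST1. EPCAM, an adhesion protein that matriptase can cleave and that is also among the epithelial markers above, differed by -7.38 ± 0.15, SCNN1A (the alpha subunit of the epithelial sodium channel) by -5.23 ± 0.14 and MST1R by -4.36 ± 0.11 (limma, adjusted p at most 7.98e-12). EPCAM and MST1R passed the filter through HMLE-pBp alone, which fixed their direction. The exception among the 10, MST1, stood at 1.28 ± 0.60 and 1.01 ± 0.14 FPKM.

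With salinomycin, 3 of the 10 tested genes of the substrate list rose in HMLE-Twist and 1 fell, beside 13.0% and 13.7% of all genes. CDCP1 went from 12.5 ± 1.6 to 32.5 ± 5.7 FPKM (1.31 ± 0.14, limma, adjusted p = 6.55e-05), the urokinase gene PLAU from 9.87 ± 2.25 to 25.9 ± 6.8 FPKM (1.30 ± 0.25, limma, adjusted p = 0.00268) and the transferrin receptor gene TFRC by 0.84 (limma, adjusted p = 0.00168). SCNN1A fell from 5.37 ± 1.001 to 2.82 ± 0.37 FPKM (-0.73 ± 0.14, limma, adjusted p = 0.0028). In HMLE-pBp, EPCAM fell from 248 ± 38 to 161 ± 22 FPKM (-0.62 ± 0.15, limma, adjusted p = 0.0144). Without HMLE-pBp salinomycin replicate 1 this became -0.53 (limma, adjusted p = 0.0617), and the call was also lost without HMLE-pBp mock replicate 3 (limma, adjusted p = 0.073).

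SERPINB2 inhibits urokinase, so the plasminogen activation system was read beside it. In HMLE-Twist mock, PLAU was lower by -3.93 ± 0.25, its receptor gene PLAUR by -1.54 ± 0.14 and PLAT by -0.49 ± 0.13, while SERPINE2 was higher by 1.48 ± 0.21 (limma, adjusted p at most 0.00386).

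With salinomycin in HMLE-Twist, PLAU rose as given above, PLAUR rose from 9.32 ± 1.58 to 22.4 ± 4.1 FPKM (1.18 ± 0.14, limma, adjusted p = 0.000117) and SERPINE2 rose by 0.66 ± 0.21 (limma, adjusted p = 0.0315). SERPINE2 gave 0.41 without HMLE-Twist mock replicate 2, and its call was lost there and without salinomycin replicates 1 or 3 (limma, adjusted p up to 0.116). SERPINB2 had 5, 1 and 0 reads in the 3 HMLE-Twist salinomycin libraries. In HMLE-pBp the gene of this system that changed was PLAT, which fell from 22.2 ± 2.7 to 11.8 ± 1.1 FPKM (-0.85 ± 0.13, limma, adjusted p = 0.000939).

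The list for kallikrein substrates held 6 junction and cornified envelope genes, not all of them established substrates. Of these, IVL (involucrin) alone passed the filter. It stood at 4.11 ± 0.65 FPKM in HMLE-pBp mock and 0.032 ± 0.016 FPKM in HMLE-Twist mock (-2.30 ± 0.11, limma, adjusted p = 2.18e-09). IVL passed through HMLE-pBp alone, so a lower level in HMLE-Twist was fixed by the filter. CDSN, the corneodesmosome protein cut by KLK5 and KLK7, reached 0.839 ± 0.11 FPKM in HMLE-pBp mock, and LOR had no read in any library.

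Several members share their locus with other transcripts in the GENCODE annotation. SPINT1, PRSS8, KLK5, KLK7 and KLK10 have an antisense partner, SPINT2 overlaps PPP1R14A on the other strand and SERPINB2 overlaps SERPINB10 on its own. Since it is not given whether the authors counted by strand, reads of such pairs cannot be told apart. SERPINB10 itself stood at 0.027 ± 0.023 FPKM in HMLE-pBp mock, beside 19.8 ± 2.95 FPKM for SERPINB2.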

How the data were processed

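RNA was sequenced from 12 libraries, and the authors deposited 1 table per group with 26364 genes each. Per the submitters' processing notes, DESeq2 (version string 1.1.0) and build hg19 were used, while aligner, counter, annotation and use of strand were not given in the sources used here. Deposited mock tables hold FPKM, scaled among the 3 libraries of a table alone. The deposited salinomycin tables hold log2 normalized counts with the spread between libraries shrunk, as their values show. The 2 kinds were therefore brought to 1 scale. In the mock tables a gene's values are whole multiples of 1 step, which gave its reads and length (99.9% of values within 0.01 of a whole read). The length was searched so that values fell on whole reads, so this share follows from the search. Such a length was found for 100% of the 12937 genes with over 100 mock reads. Of the 12308 of them with a reference length, 59.6% lay within 5% of a reference transcript. For the salinomycin tables a model of the shrinkage was fitted and undone (97.3% of values in HMLE-Twist and 95.5% in HMLE-pBp within 0.1 of a whole read, and 44.5% and 46.9% for genes with a mean over 10000 reads). 551 genes whose length was not settled were left out. The lengths of the 10 members were 0.82 (SPINT1) to 1.12 (KLK7) times the longest reference transcript (GENCODE 29). Recovered reads were scaled to FPKM by a median-of-ratios factor common to the 12 libraries, 1 was added and log2 taken.

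limma 3.58.1 in R 4.3.3 was fitted to the 4 groups in 1 model with 8 residual degrees of freedom and a variance trend, over genes with at least 1 FPKM in at least 3 libraries. The p-values were Benjamini-Hochberg adjusted over all 11688 genes, with a threshold of 0.05. The fit and the inversion were run on simulated data. The inversion was given counts shrunk by the same model it undoes, so this cannot show that the deposited values follow that model. Simulated libraries for the fit varied independently, unlike the correlated replicates described below. The labels call the replicates biological, and their precision rests on 17.9 to 26.7 megareads per library. Deviations of libraries with the same replicate number correlated at 0.427 to 0.717 within HMLE-Twist and 0.227 to 0.591 within HMLE-pBp. The main fit did not use this pairing of mock and treated libraries. The alternative with a replicate block did, with a block per replicate number shared by both lines. Across the lines replicates 1, 2 and 3 gave 0.257, 0.0645 and 0.563 in the mock and 0.275, 0.0364 and 0.594 with salinomycin. Replicates 1 and 3 thus lay in the range seen within the lines, and replicate 2 did not. The main fit did not pair the lines either. By rule, all members were to be named in each comparison and, of each other list, up to 4 called genes with the largest difference; KLK11 in the mock, genes named as not passing and the relatives too low to be tested fall outside it and were added after their values were seen, and some genes are not reported here. Members and lists were chosen with earlier results of these data known. Promoter windows were taken from RefSeq (GRCh38.p14), a build other than that of the tables, and no coordinate of the tables was used. Python 3.11.15 with numpy 2.4.6 and scipy 1.17.1 was used for recovery and exact tests.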

Additional observations from a re-analysis of the deposited data

Results flagged for a closer look

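The difference of the responses to salinomycin (HMLE-Twist minus HMLE-pBp, log2 scale) passed in limma for 2 of the 10 members, but both were at the floor in HMLE-Twist, so the value largely restates the change in HMLE-pBp. PRSS8 gave -0.78, as it rose in HMLE-pBp and stood on 1 or 2 reads per treated library in HMLE-Twist. SERPINB2 gave 0.72, as it fell in HMLE-pBp and had 0 to 5 reads in HMLE-Twist. The same holds for 3 relatives that were at or near 0 in HMLE-Twist: KLK11 (-0.85), KLK14 (0.89) and SPINK6 (0.71). On the ratio scale of limma-voom the differences of these 5 genes did not pass.

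Of the genes with reads in both lines, CDCP1 (1.21), PLAU (1.32) and PLAUR (1.32) rose in HMLE-Twist and did not pass in HMLE-pBp, and PLAT (0.70) fell in HMLE-pBp and did not pass in HMLE-Twist. The difference for PLAU passed in 13 of 22 alternatives and that for PLAT in 17 of 22, while those for CDCP1 and PLAUR passed in 22 of 22.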

How the results depend on the processing

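All 240 member values for the lines in the mock and 230 of 230 with salinomycin kept direction and call under the alternatives run. For the responses to salinomycin 208 of 221 did so in HMLE-Twist and 222 of 230 in HMLE-pBp, and 196 of 220 did so for the difference of the responses. The SERPINB2 difference passed in 6 of 22 alternatives (limma, adjusted p up to 0.456). With the replicate number as a block, the genes called rose from 2221 to 3931 in HMLE-pBp and from 1595 to 3419 for the difference, and among the members the block changed the calls of SPINT1 and ST14 given above and no other.

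Leaving out 1 library each gave 1121 to 3110 genes in HMLE-pBp. The count fell below 2221 by over 1.5 times without HMLE-pBp mock replicate 2 (1325) or 3 (1121) or salinomycin replicate 1 (1193). For the difference it gave 759 to 2341 genes, with the same drop without HMLE-pBp mock replicate 2 (856) or 3 (759), HMLE-pBp salinomycin replicate 2 (1053), HMLE-Twist mock replicate 2 (857) or HMLE-Twist salinomycin replicate 1 (784) or 3 (782). A lone pair of libraries was then assumed to vary like the other groups.

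Values of members that did not pass changed sign when 1 library was left out. In HMLE-pBp the ranges were -0.323 to 0.0792 for KLK10, -0.198 to 0.00422 for KLK7, -0.189 to 0.0145 for SERPINB5, -0.107 to 0.160 for SLPI and -0.0761 to 0.0639 for SPINT2. In HMLE-Twist they were -0.0273 to 0.00826 for KLK10, -0.0571 to 0.0368 for KLK7, -0.00482 to 0.0655 for SERPINB2 and -0.0172 to 0.181 for SERPINB5. For the difference they were -0.0874 to 0.315 for KLK10 and -0.0195 to 0.183 for KLK7. With limma-voom KLK7 gave 0.44 in HMLE-Twist and KLK10 gave -0.32 for the difference. The cause was not tested. In HMLE-Twist the depth limits 6 members to at most 10 reads per library.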

Other observations

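Among relatives too low to be tested, PRSS21, a membrane-anchored serine protease, stood higher in HMLE-Twist mock (0.732 ± 0.357 FPKM, SD, n = 3) than in HMLE-pBp mock (0.067 ± 0.060 FPKM). SPINK5, the inhibitor of KLK5 and KLK7 in the epidermis, stood at 0.229 ± 0.055 FPKM in HMLE-pBp mock and 0.377 ± 0.039 FPKM with salinomycin, and had no read in HMLE-Twist. TMPRSS13 stood at 0.381 ± 0.061 FPKM in HMLE-pBp mock and had no read in HMLE-Twist. These values were chosen after they were seen, and no test was run on them.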
